A study of Caenorhabditis elegans with 9 samples.

Results

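Worms grown with excess heme were set against worms grown with a moderate supply: 3 arrays of *Caenorhabditis elegans* at 500 uM hemin and 3 arrays at 20 uM hemin, which are 6 of the 9 arrays of the series and were chosen by their titles. Hemin is the chloride of iron(III) protoporphyrin, the usual form in which heme is added to a culture. In both groups synchronized F2 larvae were moved into fresh mCeHR-2, a liquid medium without bacteria, and RNA was taken from whole worms at the late L4 stage, the end of the last larval stage. By the labels the groups differ in the hemin concentration alone, each concentration has 3 biological replicates named A, B and C, and neither strain nor sex is given. The other 3 arrays, at 4 uM hemin, are described for some genes and entered an alternative fit, but no difference from them was tested. The design sets 500 against 20 uM hemin to find the genes whose transcripts respond to heme.

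*C. elegans* lacks the enzymes of heme synthesis and takes all of its heme from food. Its intestine imports heme through the transporters HRG-4 and HRG-1, the ABC transporter MRP-5 passes heme on to other tissues, and the secreted protein HRG-3 carries it from the mother to her embryos. Free heme damages membranes and proteins, and its breakdown releases iron, which cells hold in ferritin.

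Each probe set has 1 deposited expression value on the log2 scale per array, and the array medians were 5.43 to 5.47. Spearman correlations across probe sets were 0.9934 to 0.9939 between the 500 uM arrays, 0.9955 to 0.9967 between the 20 uM arrays and 0.9917 to 0.9940 between arrays of different groups. The 500 uM arrays lay farther apart, with a median SD over replicates of 0.125 at 500 uM against 0.0995 at 20 uM hemin (log2, n = 3 each). The first principal component, with 38.6% of the variance, separated the groups. The second, with 23.1%, had 500 uM A and 500 uM B at its ends, so that these replicates stood farthest from each other on it. With 3 arrays per group the median standard error (SE) of a log2 difference was 0.10, and each SE below is on that scale.

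Of 16911 probe sets tested with limma, 202 (1.19%) differed between 500 and 20 uM hemin at an adjusted p under 0.05, which is what "called", "rose" and "fell" mean below. At 500 uM hemin 110 probe sets (0.650%) rose and 92 (0.544%) fell. They stood for 179 gene symbols, and 14 called probe sets had no single symbol. Called differences were moderate, with a median size of 0.77 on the log2 scale, and 51 of them were larger than 2-fold, 29 higher and 22 lower. Past the 1.6-fold limit that the design text names were 276 probe sets (1.63%), 118 higher and 158 lower, of which 122 were also called. In 2838 probe sets (16.8%) the 500 and 20 uM arrays did not overlap, all 202 called ones included. The median difference over all tested probe sets was 0.01, with 53.9% of differences positive, and 2188 (12.9%) had an unadjusted p under 0.05, the share to set beside such counts below.

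The calls depended on the full set of arrays. With 1 array left out, 12 to 148 probe sets were called, the fewest without 20 uM C (12) or 20 uM A (13) and the most without 500 uM A (148). The count was 30 without 20 uM B, 46 without 500 uM B and 64 without 500 uM C. All 202 differences kept their sign in the 6 fits, which was certain beforehand because their groups did not overlap. In each of these fits 9 kept their call. These 9 probe sets belong to *clec-17*, F49F1.5, *dod-19*, F01D5.1, *clec-52*, F09C8.1, Y105C5B.7, *pud-3* and *gst-19*, named here by that count. For *clec-17*, *dod-19*, F01D5.1, *clec-52* and *gst-19* the highest adjusted p with 1 array left out was 0.0491, just under the limit. A fit that also took its spread from the 4 uM arrays called 41 probe sets.

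**Figure D1:**
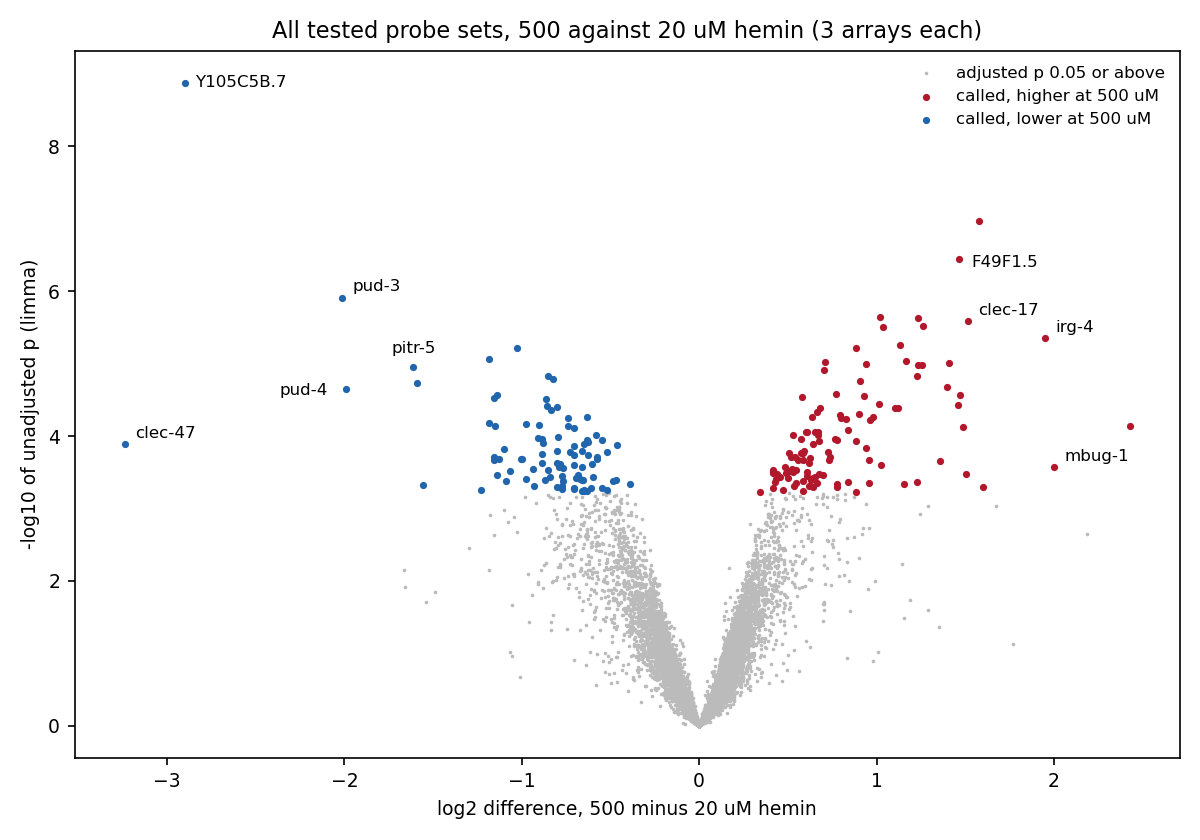
Log2 difference between 500 and 20 uM hemin (x axis) against the -log10 of the unadjusted p of limma (y axis) for all 16911 tested probe sets, 3 arrays per group. The 110 called higher are in red and the 92 called lower in blue. The largest falls, *clec-47*, Y105C5B.7, *pud-3* and *pud-4*, lie farther out than most rises, and the red point at the far right is a probe set without a single gene symbol.

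In the genes of heme transport, 2 of 6 tested members fell at 500 uM hemin and 0 rose, beside 77 of 12833 tested genes (0.600%) that fell and 98 (0.764%) that rose, with 1 probe set standing for each gene. Those shares belong beside every count of called list members below. Several hrg genes got their name from their response to heme on these arrays, and so their direction here is no independent evidence. *hrg-7* (C15C8.3), whose secreted product resembles aspartic proteases and carries a heme signal from the intestine to neurons, read 7.41, 7.27 and 7.56 at 500 uM, against 8.24, 8.68 and 8.73 at 20 uM hemin. All 500 uM arrays lay below all 20 uM arrays, and the level was 2.2-fold lower at 500 uM (log2 difference -1.14, SE 0.14, adjusted p = 0.0142). *hrg-4* (F36H1.5), which encodes the importer of heme at the gut surface, read 4.69, 5.09 and 4.90 at 500 uM, against 5.68, 5.68 and 5.82 at 20 uM hemin. Here too the groups did not overlap (log2 difference -0.83, SE 0.11, adjusted p = 0.0166). Leaving out 20 uM B, 20 uM C or 500 uM B ended the call of *hrg-7* (adjusted p up to 0.08), and leaving out any one of the 20 uM arrays or 500 uM C that of *hrg-4* (up to 0.0892). In the fit with the 4 uM arrays, among which *hrg-4* spread widely, its adjusted p was 0.896.

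The other importer gene, *hrg-1* (R02E12.6), whose product moves heme out of endosomes and lysosomes, read 6.53, 6.75 and 6.84 at 500 uM, against 6.58, 6.82 and 6.74 at 20 uM hemin. These ranges overlapped, with a log2 difference of -0.008 (SE 0.11, adjusted p = 0.992). The exporter gene *mrp-5* differed by 0.09, and *hrg-10* and *hrg-9*, of the TANGO2 family of heme trafficking proteins, by 0.10 and 0.21, without a call. *hrg-3* was among the dimmest probe sets, at 2.47 to 2.58 on the 500 uM arrays and 2.27 to 2.42 on the 20 uM arrays, and was not tested.

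Of 8 tested genes of iron homeostasis 0 were called by limma, and 3 had an unadjusted p under 0.05. The ferritin gene *ftn-1* (C54F6.14) read 7.62, 7.89 and 7.64 at 500 uM, against 6.31, 7.21 and 7.003 at 20 uM hemin. The groups did not overlap, but the 20 uM arrays spread over almost 1 log2 unit, and the difference of 0.87 (SE 0.21, adjusted p = 0.0942) was not called. The second ferritin gene, *ftn-2*, differed by 0.34 (adjusted p = 0.326), and the ferroportin-like gene *fpn-1.1* by 0.47 (adjusted p = 0.171). The remaining members, *fpn-1.2*, the metal transporter genes *smf-1* and *smf-3*, the aconitase gene *aco-1* and the frataxin gene *frh-1*, differed by -0.31 to 0.04. *fpn-1.3* (3.27 to 3.42 at 500 uM, 3.32 to 3.39 at 20 uM) and *smf-2* (2.79 to 2.87 at 500 uM, 2.81 to 2.93 at 20 uM) were too dim to be tested.

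The 15 largest rises with a gene symbol ran from 1.23 to 2.002 on the log2 scale. At their head stood *mbug-1* (F55G11.4), which read 10.62, 9.33 and 9.52 at 500 uM, against 7.26, 7.97 and 8.22 at 20 uM hemin. It was 4-fold higher at 500 uM (SE 0.34, adjusted p = 0.0359), and the replicates of each group spread over about 1 log2 unit. *irg-4* (F08G5.6), an infection response gene, read 11.17, 10.48 and 10.32 at 500 uM, against 8.62, 8.84 and 8.66 at 20 uM hemin. All 500 uM arrays lay above all 20 uM arrays, a rise of 1.95 (SE 0.20, adjusted p = 0.00755). *fil-1* (T01C3.4), a gene named for a lipase induced by fasting, rose by 1.47 (SE 0.19, adjusted p = 0.0142) and read 7.04, 6.43 and 6.23 at 500 uM, against 4.98, 5.18 and 5.13 at 20 uM hemin. *ins-35* (K02E2.4), an insulin-like peptide gene, read 9.86, 9.18 and 9.28 at 500 uM, against 8.05, 7.91 and 8.17 at 20 uM hemin and rose by 1.40 (SE 0.17, adjusted p = 0.0128), and *clc-11* (F44G3.10), of the claudin-like family of junction proteins, rose by 1.36 (SE 0.23, adjusted p = 0.0316). Of the genes in this group known only by a sequence name, F49F1.5 had the smallest p. It read 7.73, 7.51 and 7.48 at 500 uM, against 5.95, 6.17 and 6.20 at 20 uM hemin, a tight separation with a difference of 1.47 (SE 0.11, adjusted p = 0.00203). C25H3.10, C14C6.5, T19D12.4, F01D5.1 and F25A2.1 rose by 1.503, 1.46, 1.26, 1.23 and 1.23, and the second probe sets of C14C6.5 (1.49) and F25A2.1 (0.94) were called too. With 1 array left out, 11 of the 15 rises lost their call in at least 1 fit, with adjusted p up to 0.181: 11 without 20 uM A, 8 without 20 uM B, 11 without 20 uM C, 1 without 500 uM A, 4 without 500 uM B and 2 without 500 uM C. Those kept throughout were *clec-17*, F49F1.5, *dod-19* and F01D5.1. A probe set without a single gene symbol rose more than any of them, by 2.43 (adjusted p = 0.0205), at 7.76 to 9.47 on the 500 uM arrays and 6.02 to 6.21 on the 20 uM arrays.

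The 15 largest falls ran from -1.09 to -3.24. *clec-47* (T09F5.9), a C-type lectin gene, read 5.96, 7.68 and 7.86 at 500 uM, against 9.60, 10.98 and 10.63 at 20 uM hemin. It was 9.43-fold lower at 500 uM hemin (SE 0.50, adjusted p = 0.0259), and 500 uM A alone read almost 2 log2 units below the other arrays of its group. Y105C5B.7, annotated as a pseudogene, read 3.29, 3.26 and 3.50 at 500 uM, against 6.25, 6.07 and 6.42 at 20 uM hemin (log2 difference -2.90, SE 0.11, adjusted p = 2.25e-05). Its 500 uM values lay under the lower quartile of these arrays (3.70 to 3.77), among the dimmest probe sets, so that it was tested through its 20 uM level alone and the size of its fall is uncertain. With *pud-3* (F15E11.15) and *pud-4* (F15E11.12), genes named for proteins upregulated in *daf-2* mutants, it formed a list of 3 that was drawn up with their high level at 20 uM known, so that their common fall was fixed by the choice. *pud-3* read 9.08, 9.29 and 9.58 at 500 uM, against 11.63, 10.99 and 11.36 at 20 uM hemin, and *pud-4* read 8.45, 8.86 and 9.44 at 500 uM, against 11.23, 10.56 and 10.93 at 20 uM hemin. The groups of both genes stood well apart, with log2 differences of -2.01 (SE 0.17, adjusted p = 0.00521) and -1.99 (SE 0.24, adjusted p = 0.0129). Among the remaining falls, *pitr-5* (F09G2.3), of a family of sodium-phosphate transporters, read 5.02, 5.31 and 5.58 at 500 uM, against 7.20, 6.57 and 6.98 at 20 uM hemin, a difference of -1.61 (SE 0.18, adjusted p = 0.00905). *pho-9*, an acid phosphatase gene, fell by 1.16 (SE 0.15, adjusted p = 0.0142). *dao-4*, a gene named for its expression in dauer larvae and aging adults, fell by 1.23 (SE 0.23, adjusted p = 0.0485) and lost its call without any 1 of the 6 arrays. F10C2.7, C50B6.7 and E01G4.6 have no descriptive name and fell by 1.59, 1.16 and 1.09. Of the 15 falls 12 lost their call in at least 1 fit with an array left out, with adjusted p up to 0.18: 11 without 20 uM A, 9 without 20 uM B, 12 without 20 uM C, 2 without 500 uM A, 9 without 500 uM B and 7 without 500 uM C. Y105C5B.7, *pud-3* and *gst-19* kept theirs.

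**Figure D2:**
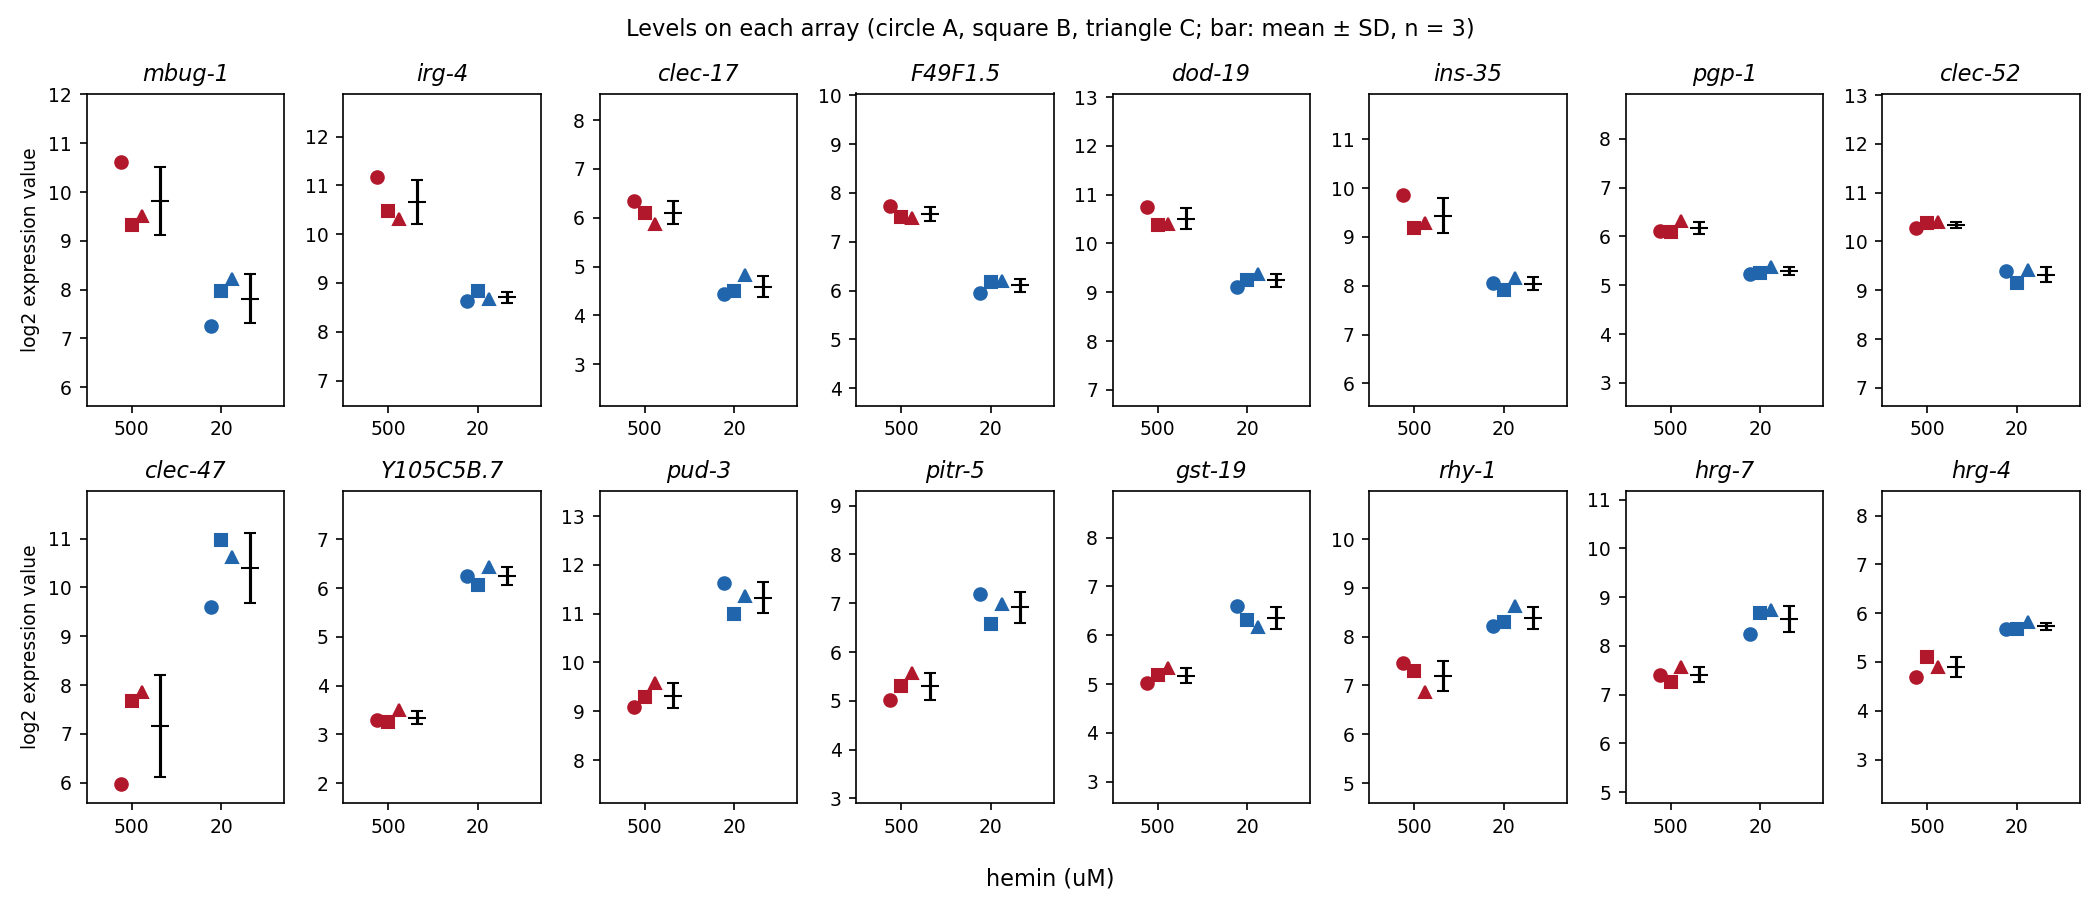
Log2 expression value (y axis, the same span in every panel) on each array of 500 and 20 uM hemin (x axis) for 16 called genes. Circles are replicate A, squares B and triangles C, and the bar gives the mean ± SD of 3 arrays. Genes of the upper row read higher on every 500 uM array, and those of the lower row read lower on every 500 uM array. *clec-47*, *mbug-1* and *irg-4* have 1 array of 500 uM (A) away from the other replicates.

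C-type lectins are a large family of secreted or membrane carbohydrate-binding proteins, many of them made in the intestine and induced in worm infections. They held the highest number of called genes of all lists examined, but theirs was also among the longest lists. Of 128 tested members (of 220 measured) 15 rose at 500 uM hemin and 1, *clec-47*, fell, beside 0.764% and 0.600% of all tested genes. In shorter lists, 4 of 52 UDP-glucuronosyltransferases rose and 2 fell, and 5 of 41 sperm family genes fell. The median difference was 0.06, 91 differences were positive and 37 negative, beside 53.9% positive over all tested probe sets, and 43 members had an unadjusted p under 0.05, beside 12.9%. The lean to positive differences is not particular to the lectins. Positive were also 130 of 178 nuclear receptors, 23 of 29 globins and heme peroxidases and 64 of 74 neuropeptides. The 92 untested lectins were among the dimmest probe sets, so the count does not cover them. *clec-17* (E03H4.10) read 6.34, 6.09 and 5.88 at 500 uM, against 4.43, 4.50 and 4.83 at 20 uM hemin, and rose by 1.52 (SE 0.14, adjusted p = 0.00579). *clec-52* (B0218.8) read 10.27, 10.37 and 10.39 at 500 uM, against 9.39, 9.15 and 9.42 at 20 uM hemin. That is 2.03-fold higher at 500 uM (SE 0.0942, adjusted p = 0.00579), with less than 0.3 log2 units between the arrays of either group. *clec-174* (Y46C8AL.2) read 8.22, 7.36 and 6.76 at 500 uM, against 5.74, 5.90 and 5.90 at 20 uM hemin, a rise of 1.60 (SE 0.30, adjusted p = 0.0464) in which the 500 uM arrays spread widely. *clec-265* rose by 1.41 (SE 0.16, adjusted p = 0.00892), *clec-4* by 0.96, *clec-66* by 0.90, *clec-65* by 0.84 and *clec-143* by 0.67. The second probe set of *clec-65* differed by 0.76 with an adjusted p of 0.0524. Several of the lectin genes that rose lie close together. The runs *clec-63*, *clec-64*, *clec-65* and *clec-66*, and *clec-67*, *clec-174* and *clec-72*, each held members within 5 protein-coding genes of the next along the chromosome, and all 7 rose. Whether their probe sets pick up each other's transcripts was not tested. With 1 array left out the number of lectins that rose was 2 to 8: 14 of the 16 calls were lost without 20 uM A, 12 without 20 uM B, 14 without 20 uM C, 8 without 500 uM A, 11 without 500 uM B and 9 without 500 uM C, with adjusted p up to 0.196. *clec-17* and *clec-52* kept theirs in every such fit, with adjusted p up to 0.0491. With the 4 uM arrays in the fit 3 lectins rose and 1 fell, and *clec-52* was not called (adjusted p = 0.462).

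Other lists of the response to infection held fewer calls by number, to be set beside 0.764% of all tested genes that rose. Of 41 tested infection response and antimicrobial genes 2 rose, *irg-4* and *dod-19*, and 15 had an unadjusted p under 0.05. *dod-19* (ZK6.10), a gene known to lie downstream of the transcription factor DAF-16, read 10.75, 10.37 and 10.39 at 500 uM, against 9.10, 9.25 and 9.38 at 20 uM hemin and rose by 1.26 (SE 0.12, adjusted p = 0.00579), and by 1.23 on another probe set. Of 15 saposin-like genes, whose products act on membranes and lipids, 1 rose: *spp-18* (F27C8.4) read 10.52, 10.32 and 10.15 at 500 uM, against 9.49, 9.47 and 9.31 at 20 uM hemin, a difference of 0.91 (SE 0.11, adjusted p = 0.0113). The *irg-4* call was lost without 20 uM A or 20 uM C (up to 0.0631) and that of *spp-18* without any one of the 20 uM arrays (up to 0.0706). Of 10 lysozyme genes, which encode enzymes that break bacterial walls, limma called 0, although 6 had an unadjusted p under 0.05 (12.9% of all tested probe sets did). Their median was 0.19, or 0.07 without 500 uM A, and they went both ways: *lys-1* differed by 0.42 and *lys-8* by 0.37, *ilys-5* by -0.78 and *ilys-3* by -0.42. On 500 uM A the lysozyme median lay 0.42 above the mean of the 20 uM arrays, against 0.08 on 500 uM B and 0.09 on 500 uM C.

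Lysosomal and gut proteases changed in both directions. Of 30 tested cathepsin-like and aspartic protease genes 2 rose and 1 fell. *asp-12* (F21F8.4), of the aspartic proteases, read 12.53, 12.51 and 12.28 at 500 uM, against 11.72, 11.80 and 11.68 at 20 uM hemin, a rise of 0.71 (SE 0.0779, adjusted p = 0.00892). *cpr-3* (T10H4.12), of the cathepsin B family, rose by 1.10 (SE 0.15, adjusted p = 0.0163), and by 1.02 on another probe set. *cpr-8* (W07B8.1), of the same family, went the other way: it read 5.81, 6.07 and 6.37 at 500 uM, against 6.90, 7.03 and 7.04 at 20 uM hemin, 1.87-fold lower at 500 uM (SE 0.14, adjusted p = 0.0244). Of 11 lysosomal lipase and sphingomyelinase-related genes 2 rose, the lipase gene *lipl-1* (0.61, SE 0.11, adjusted p = 0.041) and the acid ceramidase gene *asah-2* (0.62, SE 0.12, adjusted p = 0.046). Of 80 genes of fatty acid metabolism 2 rose, *acox-1.5* by 0.62 (SE 0.11, adjusted p = 0.0337) and *acox-3* by 0.49 (SE 0.0829, adjusted p = 0.0359), both of the acyl-CoA oxidases that open peroxisomal beta-oxidation, and the median of that list was -0.0049. All 7 calls of these 3 lists were lost without 20 uM A or 20 uM C, 5 without 20 uM B, 4 without 500 uM A, 6 without 500 uM B and 2 without 500 uM C (adjusted p up to 0.173).

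Enzymes and pumps that handle foreign compounds held calls in both directions, to be set beside 0.764% of all tested genes that rose and 0.600% that fell. UDP-glucuronosyltransferases attach a sugar to small molecules, and of 52 tested 4 rose and 2 fell. *ugt-18* (ZC443.5) read 7.14, 7.15 and 6.80 at 500 uM, against 5.85, 6.04 and 5.70 at 20 uM hemin, and rose by 1.17 (SE 0.13, adjusted p = 0.00892). Its neighbour *ugt-16* (ZC443.6) rose by 0.88 (SE 0.14, adjusted p = 0.0249), *ugt-7* by 0.79 and *ugt-44* by 0.47. At 20 uM hemin *ugt-7* read 3.63, 3.53 and 3.64, under the lower quartile of these arrays (3.70 to 3.72). It was tested through its 500 uM level alone, so its call and the size of its rise are uncertain. *ugt-32* and *ugt-6* fell by 0.83 and 0.67. Of 40 glutathione transferases, which join glutathione to reactive molecules, 1 rose and 2 fell. *gst-22* (F21H7.1) rose by 1.16 (SE 0.21, adjusted p = 0.0444). *gst-19* (F37B1.8) read 5.02, 5.18 and 5.32 at 500 uM, against 6.60, 6.31 and 6.16 at 20 uM hemin, a difference of -1.18 (SE 0.13, adjusted p = 0.00892), and *gst-29* fell by 0.80. Of 43 ABC transporters besides *mrp-5* 3 rose: the P-glycoprotein gene *pgp-1* (K08E7.9) read 6.11, 6.10 and 6.31 at 500 uM, against 5.24, 5.25 and 5.38 at 20 uM hemin and rose by 0.88 (SE 0.0922, adjusted p = 0.00802), the gene of a peroxisomal transporter, *pmp-1*, rose by 0.67, and *abt-4* by 0.59. Except for *gst-19*, each of these 12 calls was lost in at least 1 fit with an array left out: 11 without 20 uM A, 9 without 20 uM B, 11 without 20 uM C, 7 without 500 uM A, 7 without 500 uM B and 4 without 500 uM C, with adjusted p up to 0.196. *ugt-44*, with an adjusted p of 0.0487, was also lost under median centring, without the filter, with a constant variance prior and with array weights. Of 46 cytochromes P450, which carry heme themselves, limma called 0 and 7 had an unadjusted p under 0.05, a share near the 12.9% of all tested probe sets, with *cyp-33C4* at 0.43 (adjusted p = 0.0693) and a median of 0.03.

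**Figure D3:**
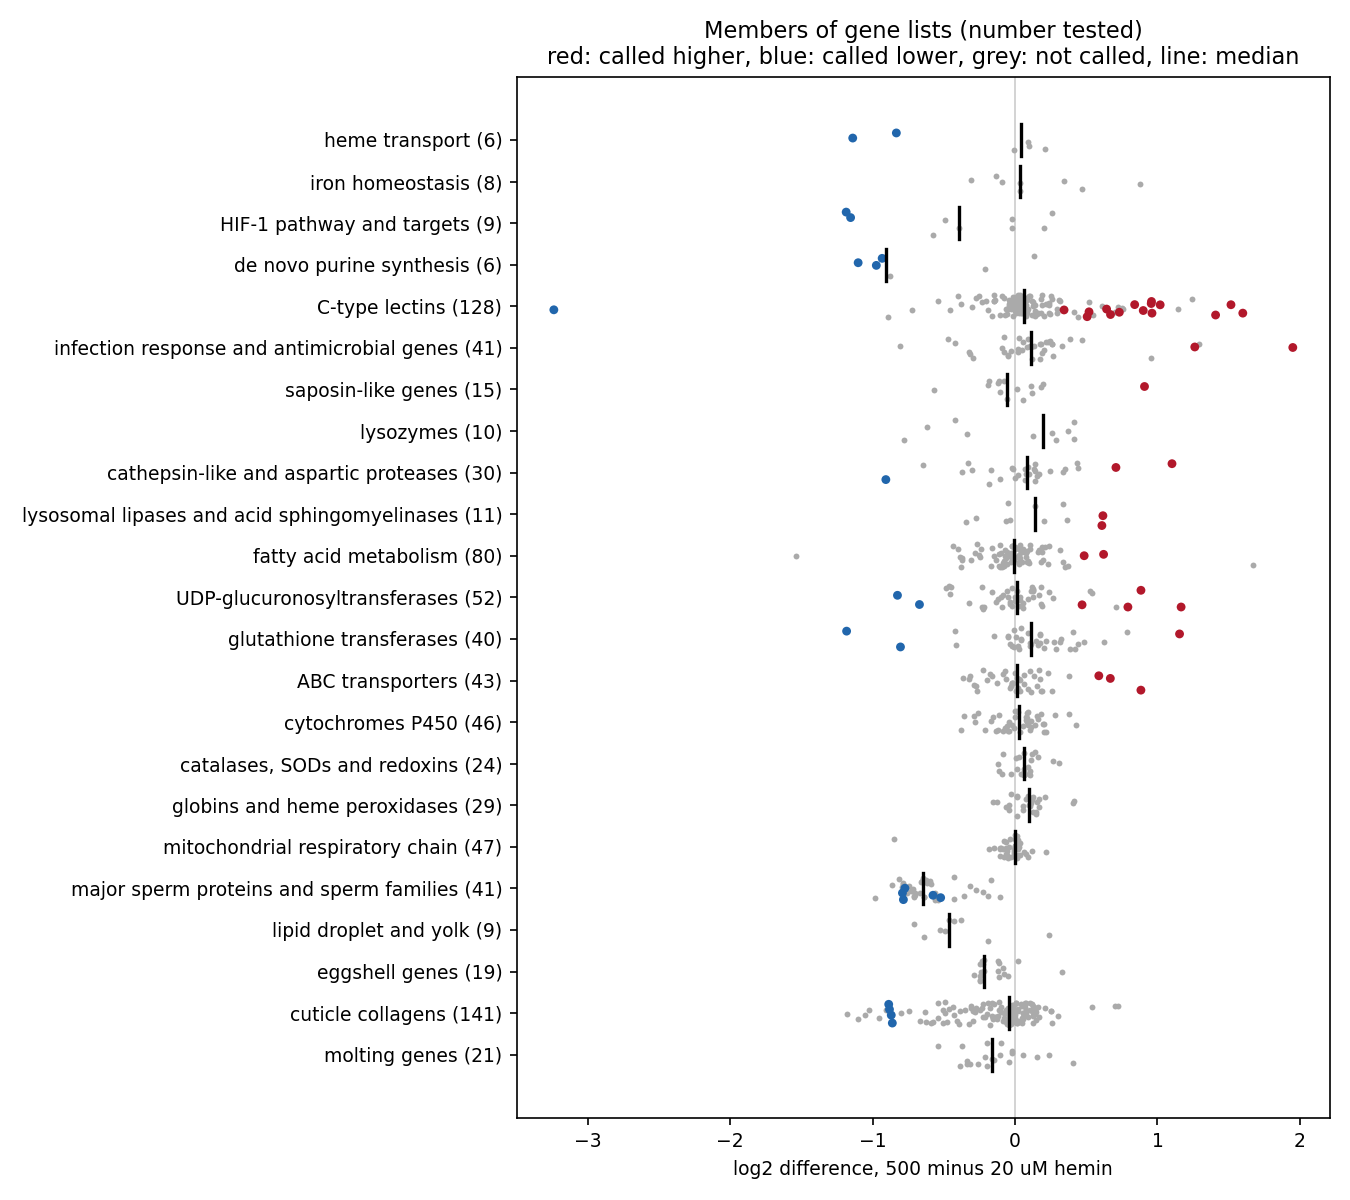
Log2 difference between 500 and 20 uM hemin (x axis) of every tested member of 23 gene lists (rows, with the number tested), 1 probe set per gene. Called members are red (higher) or blue (lower), uncalled ones grey, and the black line is the median of the list. The red points are most numerous in the C-type lectins, which are among the longest lists. The sperm genes lie left of 0 as a body, and the respiratory chain, redoxins and P450 genes lie around 0, except for *cyc-2.2* of the respiratory chain at -0.85.

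Genes of the hypoxia pathway held 2 falls. HIF-1, the transcription factor stabilised at low oxygen, is degraded through EGL-9 and VHL-1, and RHY-1 is a membrane protein that restrains it and is itself encoded by a HIF-1 target gene. *rhy-1* (W07A12.7) read 7.45, 7.29 and 6.86 at 500 uM, against 8.22, 8.30 and 8.64 at 20 uM hemin, 2.27-fold lower at 500 uM hemin (SE 0.17, adjusted p = 0.0204). F22B5.4, another known target, read 5.86, 5.77 and 5.82 at 500 uM, against 7.13, 6.47 and 7.32 at 20 uM hemin, and fell by 1.15 (SE 0.19, adjusted p = 0.0316). Of 9 tested members 6 had an unadjusted p under 0.05, and the median was -0.40. The targets *phy-2* (-0.58, adjusted p = 0.0536), *cysl-2* (-0.49, adjusted p = 0.124) and *nhr-57* (-0.40, adjusted p = 0.194) were not called, and K10H10.4 differed by 0.26. On the 500 uM arrays the median of the list lay 0.50 (A), 0.36 (B) and 0.30 (C) below the mean of the 20 uM arrays, which themselves ran from -0.10 (A) to 0.19 (C). Both calls were lost without 20 uM A, 20 uM C, 500 uM B or 500 uM C, that of *rhy-1* also without 20 uM B and that of F22B5.4 without 500 uM A (adjusted p up to 0.141), and both in the fit with the 4 uM arrays (0.145 and 0.189).

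Enzymes of purine and amide synthesis came up among the falls and were gathered into lists after their values were seen, so their counts are descriptions. The de novo purine pathway builds the purine ring step by step, and 3 of its 6 tested genes fell. *atic-1* (C55F2.1), for the enzyme of the last steps to inosine monophosphate, read 7.29, 7.89 and 7.996 at 500 uM, against 8.89, 8.91 and 8.69 at 20 uM hemin, a difference of -1.10 (SE 0.17, adjusted p = 0.0287). *paic-1* (B0286.3), for the enzyme of carboxylation and the next step, read 8.57, 9.24 and 9.29 at 500 uM, against 9.97, 10.09 and 9.96 at 20 uM hemin, a difference of -0.97 (SE 0.18, adjusted p = 0.0418). *pfas-1* (F10F2.2), for formylglycinamidine ribonucleotide synthase, fell by 0.93 (SE 0.17, adjusted p = 0.0462). *ppat-1*, for the first committed enzyme, differed by -0.88 and *adsl-1* by -0.21 without a call, and *adss-1*, of the branch towards AMP, by 0.13. The second probe set of *atic-1* differed by -0.94 and was not called (adjusted p = 0.227). On 500 uM A the median of this list lay 1.37 below the mean of the 20 uM arrays, against 0.65 on 500 uM B and 0.54 on 500 uM C. Of 8 glutamine and asparagine synthetase genes 2 fell, *asns-2* by 0.77 and *gln-2* by 0.71. All 5 calls of both lists were lost without any one of the 20 uM arrays or 500 uM B (adjusted p up to 0.196), 4 when 500 uM C was left out and 2 when 500 uM A was.

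Of 41 tested genes of the major sperm proteins and the sperm-specific families, 5 fell at 500 uM hemin and 0 rose. Hermaphrodites make their sperm during the L4 stage, and the major sperm proteins drive the crawling of these cells. Those at an unadjusted p under 0.05, the called ones included, were 36, and all 41 differences were negative, with a median of -0.65 beside 0.01 over all tested probe sets. Copies of these families are nearly identical and their probe sets can share signal, so the 41 are not separate measurements. *msp-76* (ZK1251.6) read 9.56, 9.03 and 9.27 at 500 uM, against 9.89, 10.16 and 10.12 at 20 uM hemin, *msp-63* (K05F1.7) read 7.59, 7.06 and 7.37 at 500 uM, against 8.06, 8.19 and 8.12 at 20 uM hemin, and *msd-4* (C35D10.11) read 7.37, 6.83 and 7.18 at 500 uM, against 7.85, 7.996 and 7.90 at 20 uM hemin. In each of them all 500 uM arrays lay below all 20 uM arrays and 500 uM B was the lowest. Their differences were -0.77 (SE 0.14, adjusted p = 0.0405), -0.78 (SE 0.13, adjusted p = 0.0341) and -0.79 (SE 0.14, adjusted p = 0.0359). *nspd-7* fell by 0.52 and *ssq-2* by 0.58, though the second probe set of *ssq-2* differed by 0.10. The replicates at 500 uM hemin disagreed on the size of this fall. The median of the sperm list lay 1.06 below the mean of the 20 uM arrays on 500 uM B, against 0.36 on 500 uM A and 0.50 on 500 uM C, and the 20 uM arrays ran from -0.17 (A) to 0.18 (B). All 5 calls were lost without any one of the 20 uM arrays, 500 uM B or 500 uM C (adjusted p up to 0.186), and 2 without 500 uM A, and 0 were called in the fit with the 4 uM arrays. Without 500 uM A 8 members fell. Of 33 other sperm genes, a list gathered after values were seen, 4 fell, of which *gsp-4*, for a sperm protein phosphatase, fell by 0.90 (SE 0.13, adjusted p = 0.0205) and *spe-4*, a presenilin-like gene, by 0.49 (SE 0.0885, adjusted p = 0.0423). Their median was -0.16, at -0.21 on 500 uM A, -0.22 on 500 uM B and -0.09 on 500 uM C. In whole worms, fewer sperm cells and less RNA per cell cannot be told apart.

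Cuticle collagens form the worm's outer coat, each set being made in its own molt, and of 141 tested 0 rose and 4 fell. *bli-2* (F59E12.12), a collagen of the adult cuticle, read 10.14, 9.81 and 9.98 at 500 uM, against 10.88, 10.97 and 10.67 at 20 uM hemin, a difference of -0.86 (SE 0.11, adjusted p = 0.0147). *col-110*, *col-79* and *col-38* fell by 0.89, 0.88 and 0.87. *bli-1*, the partner collagen of *bli-2*, differed by -0.80 without a call on its brighter probe set (adjusted p = 0.0717) and by -0.89 with a call on the other (adjusted p = 0.0301). The adult collagen gene *col-19* was dim, at 4.25 to 5.33 on the 500 uM arrays and 4.45 to 5.74 on the 20 uM arrays, with a difference of -0.22. Of the 141 differences 90 were negative and 51 positive, with a median of -0.04, and 41 members had an unadjusted p under 0.05, beside 12.9% of all tested probe sets. All 4 calls were lost without any one of the 20 uM arrays or without 500 uM C, 2 without 500 uM B (adjusted p up to 0.162), and all 4 in the fit with the 4 uM arrays.

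Of 21 molting genes limma called 0 and 9 had an unadjusted p under 0.05, beside 12.9% of all tested probe sets, with a median of -0.16 that was -0.10 without 20 uM A. *lin-42*, the worm's period homolog that times the molts, differed by -0.38 (adjusted p = 0.132), and by 0.21 on its second probe set. The heme peroxidase gene *mlt-7* differed by 0.41 (adjusted p = 0.083), and by 0.12 on its second probe set (adjusted p = 0.581). Hedgehog-related and patched-related genes, many of them tied to the molts, had 0 of 67 called by limma and 21 at an unadjusted p under 0.05, with *wrt-2* at -0.47 and *wrt-1* at -0.45. Of 9 yolk and lipid droplet genes 0 were called and 4 had an unadjusted p under 0.05. Their median of -0.47 was -0.22 without 500 uM A, on which the list lay 0.58 below the mean of the 20 uM arrays, against 0.31 on 500 uM B and 0.11 on 500 uM C. Of its members *vit-1*, a yolk protein gene, differed by -0.49 (adjusted p = 0.073) and the triglyceride synthesis gene *dgat-2* by -0.43, whereas *vit-2* differed by -0.71 with an SE of 0.42. Eggshell genes (0 of 19 called, 2 at an unadjusted p under 0.05, median -0.22 but -0.09 without 500 uM B), oocyte and embryo genes (0 of 22, 2 at an unadjusted p under 0.05, median -0.09) and genes of germline proliferation and meiosis (0 of 32, 1 at an unadjusted p under 0.05, median -0.04) had small differences in limma.

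**Figure D4:**
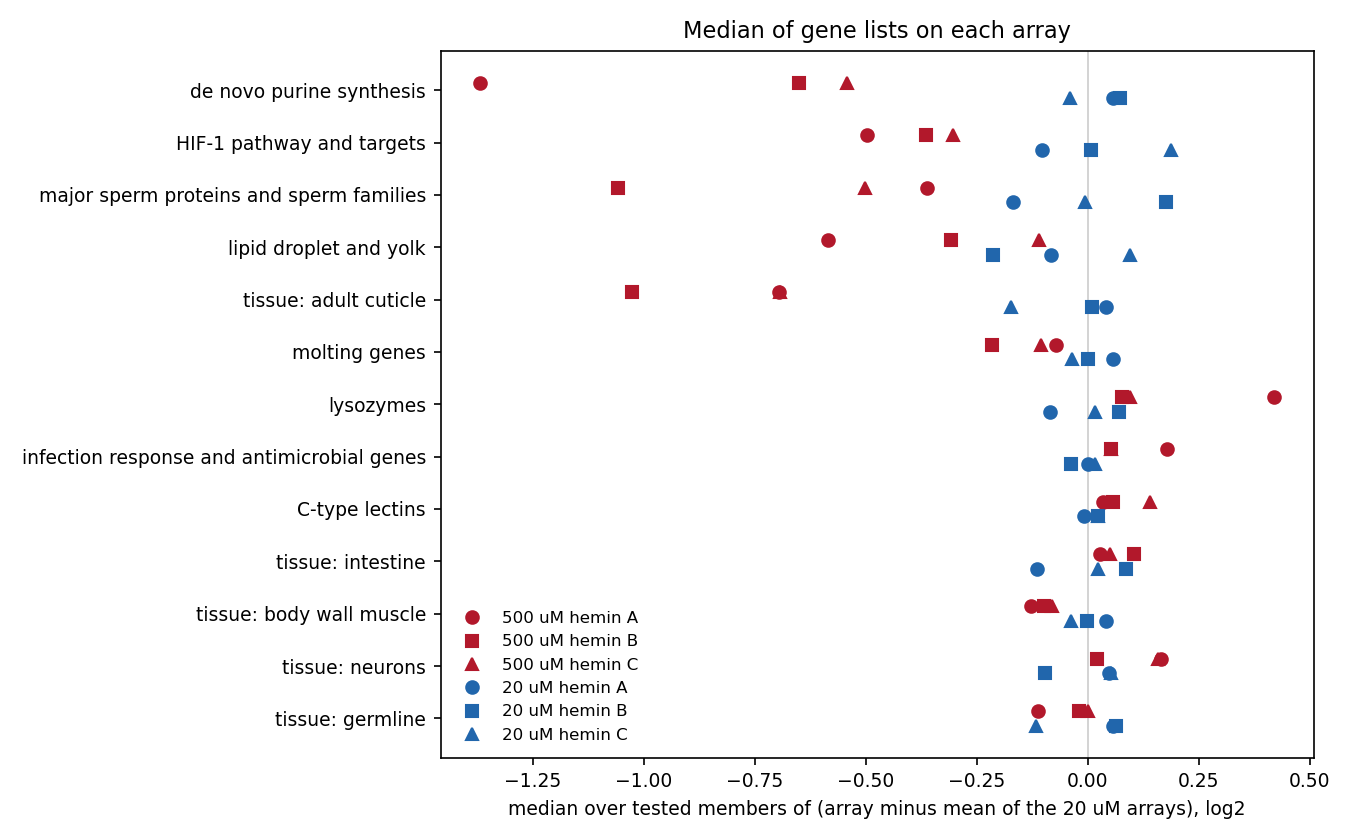
Median over the tested members of a list of the log2 value on 1 array minus the mean of the 20 uM arrays (x axis), for 13 gene lists (rows). Red symbols are the 500 uM arrays and blue symbols the 20 uM arrays, with circles for A, squares for B and triangles for C. The red and blue symbols are apart for the purine, HIF-1, sperm and adult cuticle lists, with 500 uM A lowest in the first and 500 uM B lowest in the sperm and cuticle lists, and they mix for the tissue lists of intestine and germline.

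Marker genes of the worm's tissues were read in both groups. The median difference was 0.07 over 6 markers of the intestine, -0.09 over 5 of body wall muscle, 0.03 over 5 of the pharynx, 0.15 over 6 of neurons, 0.0087 over 4 of hypodermis and seam, -0.05 over 6 of the germline and -0.12 over 7 of oocytes and embryos (-0.07 without 500 uM B). All of these tissues were present in both groups, with median levels of 7.10 to 11.5 at 500 uM and 6.95 to 11.6 at 20 uM hemin. Of these markers 1 was called: *pha-4*, the organ identity gene of the pharynx, which rose by 0.41 (SE 0.0778, adjusted p = 0.0464) and lost its call without any 1 array (up to 0.18), while its second probe set differed by 0.40 (adjusted p = 0.0826). The *pha-4* call was also lost under quantile normalization, median centring, without the filter, with the replicate block and with the 4 uM arrays in the fit. The 3 markers of the adult cuticle, *bli-1*, *bli-2* and *col-19*, had a median of -0.80 with 1 called, and the sperm genes are given above. Their part in the other differences was not tested.

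Lists on oxidative stress and on heme-containing proteins held no call. Catalases, superoxide dismutases and redoxins remove reactive oxygen, and limma called 0 of 24, with 1 at an unadjusted p under 0.05, *sod-3* at 0.31 and a median of 0.06. Globins and heme peroxidases gave 0 of 29 (2 at an unadjusted p under 0.05, median 0.10), the mitochondrial respiratory chain 0 of 47 (1, median -0.0026), ribosomal proteins 0 of 62 (0, median -0.02) and mitochondrial chaperones 0 of 8 (0, median 0.01). Soluble guanylate cyclases, which bind heme, had 2 of 7 members bright enough to be tested and 0 called (0 at an unadjusted p under 0.05). Iron-sulfur and heme genes of mitochondria gave 0 of 5 (0), copper and zinc transporters 0 of 21 (3, with the zinc transporter gene *ttm-1* at 0.40), metallothioneins and cdr genes 0 of 6 (2, with *cdr-2* at 0.43), short-chain dehydrogenases 0 of 31 (6) and lipocalin-related genes 0 of 7 (2, with *lpr-5* at -0.35). Cytosolic heat shock genes had 0 of 10 called (2 at an unadjusted p under 0.05), and the inducible *hsp-70* differed by -1.01 with an SE of 0.75. Of 29 genes of endoplasmic reticulum stress 1 fell, *hsp-4*, the inducible BiP chaperone gene, by 0.55 (SE 0.0829, adjusted p = 0.0244).

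Claudin-like genes, which seal or shape cell junctions, were also gathered after their values were seen, and 3 of 22 rose: *clc-11*, *clc-19* (0.65) and *clc-21* (0.43). These calls were lost without any one of the 20 uM arrays or without 500 uM B, and 2 of them without 500 uM A or 500 uM C (adjusted p up to 0.18). The linker histone gene *hil-1* rose by 0.71 (SE 0.0803, adjusted p = 0.00937) among 33 histone genes, the nuclear receptor gene *nhr-226* by 0.42 (SE 0.0725, adjusted p = 0.0373) among 178 receptors, and *ins-35* among 27 genes of insulin-like peptides and signalling. *nlp-25* fell by 0.63 (SE 0.10, adjusted p = 0.0303) among 74 neuropeptide genes, of which 64 differences were positive with a median of 0.15. Together with *hsp-4* and *pha-4* these are 6 calls, all of them lost without 20 uM A or 20 uM C, 5 without 20 uM B, 3 without 500 uM A, 4 without 500 uM B and 4 without 500 uM C (adjusted p up to 0.18). Those of *nhr-226*, *nlp-25* and *pha-4* were lost without any 1 array. Single calls are to be set beside 0.764% of all tested genes that rose and 0.600% that fell. They say nothing about their lists as a whole.

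Called genes that lie close together mostly moved the same way, by a rule set after the calls were seen. Of 177 called protein-coding genes with a place in the gene order, 29 fell into 13 runs whose members lay within 5 genes of the next, and in 12 of the 13 runs all members went in the same direction. Besides the lectins these included *pud-3* with *pud-4*, *ugt-18* with *ugt-16*, *lipl-1* with T16G1.6, *tsp-2* with *tsp-1*, F01D5.1 with F01D5.3 and F49F1.5 with *mul-1*, a mucin-like gene that rose by 1.23. The exception was C14C6.5, which rose, beside C14C6.3, which fell. How many runs as many genes drawn without regard to their calls would form was not computed, so the number of runs is a description. Whether the probe sets of these neighbours pick up each other's transcripts was not tested either. Of 21 called genes with several tested probe sets, 9 had all of them called and 20 had all of them on the same side of 0.

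The values at 4 uM hemin are given as a description for some called genes, with no test, since the groups share the 20 uM arrays. No rule chose these genes, so they do not stand for the called genes as a whole. *hrg-7* averaged 12.6 ± 0.11 at 4 uM, 8.55 ± 0.27 at 20 uM and 7.41 ± 0.15 at 500 uM hemin (log2, SD, n = 3 arrays each), lower at each higher concentration. *cpr-8* averaged 9.57 ± 0.021 at 4 uM, 6.99 ± 0.077 at 20 uM and 6.08 ± 0.28 at 500 uM. *clec-52* averaged 6.07 ± 0.85 at 4 uM, 9.32 ± 0.15 at 20 uM and 10.3 ± 0.064 at 500 uM. In *cpr-8* the means went down with hemin and in *clec-52* they went up. Of the other rising lectins with values above, *clec-174* also had a lower mean at 4 uM (4.94) than at 20 uM (5.85). The means of *clec-17*, *clec-65*, *clec-143*, *clec-265*, *clec-4* and *clec-66* were higher at 4 than at 20 uM. For *clec-265* they were 10.49 and 9.58, for *clec-4* 10.43 and 9.56, and for *clec-66* 10.01 and 9.29. *asp-12* averaged 10.5 ± 0.38 at 4 uM, 11.7 ± 0.062 at 20 uM and 12.4 ± 0.14 at 500 uM. *lipl-1* averaged 8.01 ± 0.48 at 4 uM, 9.48 ± 0.15 at 20 uM and 10.1 ± 0.15 at 500 uM. Both were higher at each higher concentration. *pud-3* averaged 7.77 ± 0.18 at 4 uM, 11.3 ± 0.32 at 20 uM and 9.32 ± 0.25 at 500 uM. Y105C5B.7 averaged 4.71 ± 0.6 at 4 uM, 6.25 ± 0.18 at 20 uM and 3.35 ± 0.13 at 500 uM. For these the 20 uM group was the highest of the 3, which was known when they were put into a list and is no finding. *clec-47* averaged 11.3 ± 0.22 at 4 uM, 10.4 ± 0.72 at 20 uM and 7.17 ± 1.1 at 500 uM. *gst-19* averaged 6.71 ± 0.13 at 4 uM, 6.35 ± 0.22 at 20 uM and 5.17 ± 0.15 at 500 uM. In *clec-47* and *gst-19* the 4 and 20 uM means lay nearer to each other than either to the 500 uM mean. *hrg-4* read 6.35, 8.89 and 9.33 on 4 uM A, B and C, above all arrays of 20 and 500 uM hemin.

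**Figure D5:**
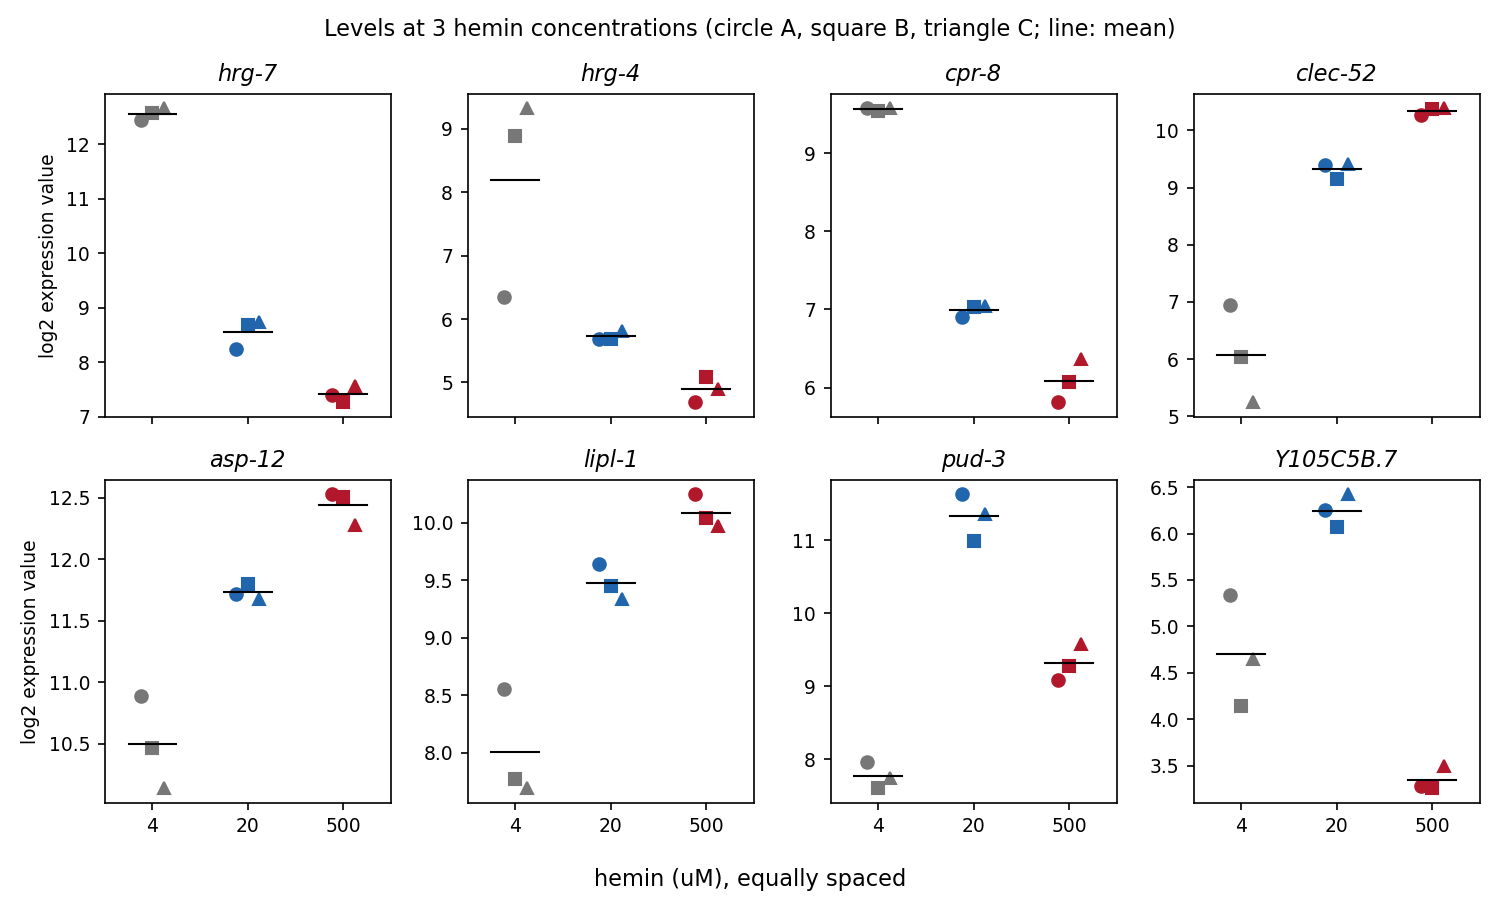
Log2 expression value (y axis, scaled per panel) on each array of 4, 20 and 500 uM hemin (x axis, equally spaced) for 8 called genes, not chosen by a rule. Circles are replicate A, squares B and triangles C, and the line is the mean of 3 arrays. *hrg-7*, *hrg-4* and *cpr-8* step down with hemin, *clec-52*, *asp-12* and *lipl-1* step up, and *pud-3* and Y105C5B.7, which were listed for it, peak at 20 uM.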

How the data were processed

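The deposited table holds log2 expression values, 1 per probe set, from Affymetrix whole-genome *C. elegans* arrays. Per the submitters' processing notes MAS5 and RMA were used, and which of them made the table is not stated there. The values are positive, reach about 14 and have nearly equal quartiles on every array, so they were taken as already normalized between arrays by the authors. The arrays are labelled biological replicates, and nothing says whether they came from separate cultures, so p-values measure the spread between these samples.

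Of 22625 probe sets 77 array controls were left out, and then the dimmest 25% of the 22548 others by mean over the 6 arrays. Genes were named from the platform annotation (20766 probe sets with 1 symbol, 887 with several and 895 with none). The 500 minus 20 uM difference was fitted with limma 3.58.1 in R 4.3.3 (lmFit, eBayes with a trended prior), and p-values were adjusted by Benjamini-Hochberg over all 16911 probe sets. A gene with several probe sets was represented by the brightest on average. Levels of different probe sets are not compared.

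The comparison, the gene lists and the rule for named genes were chosen with earlier results of these data known. The rule took the 15 largest rises and 15 largest falls with a symbol and without overlap, all genes of heme transport and iron, and of each other list up to 8 called members or, with none called, the 2 smallest p. Other genes with values (such as *bli-1*, *col-19*, *vit-2*, *hsp-70*, *mul-1*, C14C6.3, the ilys genes and the uncalled hypoxia targets) and the lists of purine, amide, claudin-like and further sperm genes were picked after values were seen. The fit was tested on simulated data for this comparison with 16911 probe sets. It recovered 100% of changes of 2, 90% of changes of 1 in either direction and 34% of changes of 0.5 (log2). Of its 168 calls on the simulated data, 11 (6.55%) were false. These shares hold for the simulated data, and 6.55% is no error rate for the calls on the real arrays. On the real arrays 500 uM A and 500 uM B stood apart on a principal component with 23.1% of the variance. How such spread, shared by many probe sets, affects the share of false calls was not tested. Alternatives covered normalization, filter, prior, replicate block, array weights, the 4 uM arrays in the fit, a fold threshold, left-out arrays and the mean of a gene's probe sets.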

Additional observations from a re-analysis of the deposited data

How the results depend on the processing

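The number of called probe sets (202, with 110 higher and 92 lower at 500 uM hemin) rested on all 6 arrays. With 1 array left out it lay between 12 and 148, with 7 to 70 higher and 5 to 78 lower. With the 4 uM arrays in the fit it was 41 (26 higher, 15 lower), all 41 among the 202, and in limma's treat test against a 1.2-fold change 25 (18 higher, 7 lower). The smaller sets leave fewer samples, and the treat test asks for a larger change. The fit with 4 uM has the same differences but takes its spread from the 4 uM arrays too. How much of that spread lies in the 4 uM arrays was not tested. Quantile normalization, median centring, no filter, the filter on the dimmest 50%, a constant or a robust prior and array weights gave 162 to 259 calls. With the replicate letters as a block (replicate block) there were 145 calls, which held 60.9% of the 202. Same-letter arrays correlated at 0.06 (A), 0.26 (B) and -0.03 (C) in their deviations from the group means. Arrays of different letters correlated at -0.19 to 0.15, below the value of B. These values do not settle whether the letters pair the samples, and the main fit took the samples as unpaired.

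Without overlap between the groups a left-out array could not turn a sign. The block, filter, prior, treat and 4 uM fits leave the difference itself unchanged. That 0 of 79 called genes named here changed sign under any alternative was therefore largely fixed in advance. Their call was lost in 52 with the 4 uM arrays in the fit, 60 under treat, 25 under the block, 13 without the filter and 26 (without 500 uM A) to 71 (without 20 uM C) with an array left out, and in at most 5 under each other setting. Among uncalled genes close to 0, leaving out an array turned the sign of *hrg-1* (-0.08 to 0.08), *aco-1* (-0.27 to 0.07), *frh-1* (-0.01 to 0.09), *smf-1* (-0.03 to 0.07), *gcy-37* (-0.01 to 0.20), *gcy-34* (-0.10 to 0.14) and *glh-1* (-0.14 to 0.04), and quantile normalization gave *gcy-34* -0.0037. With 3 arrays per group most changes of 0.5 (log2) were missed in simulation.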
